A study of Rattus norvegicus with 4 samples.

Results

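The genes described here act in glucose uptake, glycolysis, lactate handling and glycogen storage. They were taken from a list of 38 genes by name, as all probe sets of the Affymetrix rat genome array that the annotation assigns to 1 listed gene, and 36 of the 14217 genes measured were members. Of the remaining listed genes, Gapdh was represented by 3 control probe sets, which are given apart, and the probe set of Pkm is shared with a pseudogene and was not used. RNA came from 4 cultures of the rat skeletal myoblast line L6, with 1 array for each: L6-WT monolayer, L6-HGF monolayer, L6-WT sheet and L6-HGF sheet. The labels give the strain as Wistar for all 4. L6-WT is the wild type line. L6-HGF is the same line with constitutive expression of human HGF from a retroviral vector, selected with puromycin. No line with an empty vector is described, so hHGF, vector and selection cannot be told apart in these comparisons. A sheet is a dense layer of L6 myoblasts that comes off a thermoreactive dish in 1 piece. How the monolayers were plated is not described, so dish, plating, detachment and sheet form cannot be told apart between formats. The study asked whether hHGF acts on the gene expression of the myoblasts that secrete it.

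Glycolysis splits glucose into pyruvate in the cytosol and yields ATP without oxygen. Pyruvate is then reduced to lactate or enters mitochondria through the pyruvate dehydrogenase complex, which the PDK kinases inhibit. Skeletal muscle stores glucose as glycogen and uses isozymes of its own at several steps. Many glycolytic genes are known targets of the hypoxia-inducible factors, which bind DNA at a short core motif.

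The authors deposited log2 values in which the median over the 4 arrays was subtracted from each probe set. A centred log2 value therefore says how far an array lies from the middle of the 4 for that gene and says nothing about how strongly the gene is expressed. By this centring, the middle values of a gene with 1 probe set are of equal size and opposite sign. With 1 array per culture no comparison between single cultures has a test, and all such differences lack a replicate check. Differences of 2-fold or more, the threshold of the study, are counted beside the same count over all 14217 genes. As a measure of technical spread, 45 bacterial control probe sets were read, whose log2 differences varied with an SD of 0.12 between the monolayers, 0.22 between the sheets, 0.18 between formats in L6-WT and 0.16 between formats in L6-HGF. This spread holds no variation between cultures. In bulk RNA, fewer cells that express a gene and less RNA of it per cell cannot be told apart.

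Rat Hgf, read by probes that were not designed for the human transgene, had log2 differences between L6-HGF and L6-WT of 0.38 in monolayers and 0.50 in sheets, which does not check the labels. The rat control probe sets gave a sign of RNA quality of the arrays relative to each other. Because each probe set was centred, 3′ minus 5′ differences near 0 do not show that RNA was intact on any array. The 3′ minus 5′ log2 difference was higher on each sheet array than on either monolayer array for beta-actin, GAPDH and hexokinase, with ranges from -0.12 to 0.11, from -0.024 to 0.080 and from -0.17 to 0.19. For GAPDH the L6-WT monolayer (0.0236) and the L6-WT sheet (0.0242) were nearly equal. Of 9 listed myoblast markers 6 were measured, with medians between -0.16 and 0.01 (log2) in the 4 comparisons and none past 2-fold, but centred values cannot show whether a marker was present. All 14 measured markers of differentiating muscle were lower in L6-HGF than L6-WT monolayers, 5 of them past 2-fold (Myh3, Acta1, Tnnc2, Tnnc1 and Mymk), with a median log2 difference of -0.49. Of all 14217 genes 7019 were below 0 there, and 0.309% were past 2-fold lower. In sheets 12 of the 14 markers were lower in L6-HGF, Acta1 and Mymk past 2-fold, with a median of -0.35. Of all 14217 genes 7630 were below 0 in that comparison, and 0.95% were past 2-fold lower. Between formats the medians of these markers were -0.25 in L6-WT and 0.19 in L6-HGF. Myh3 was past 2-fold lower in the L6-WT sheet than in its monolayer, against 0.492% of all genes. Of 10 fibroblast markers, Fndc1, Mfap5, Postn and Dpt were lower past 2-fold in L6-HGF in each format, against 0.309% of all genes in monolayers and 0.95% in sheets. The medians of the 10 were -0.25 in monolayers and -0.82 in sheets. Between formats Dcn, Dpt, Postn and Lum were higher past 2-fold in the sheets of each cell line, against 0.394% of all genes, while the rest of the list did not follow. In L6-WT 4 of the 10 were below 0, with Fndc1 2.99-fold lower in the sheet and a median of 0.39, and in L6-HGF 5 were below 0, with a median of -0.13. Of all 14217 genes 6488 were below 0 between the formats of L6-WT and 6531 between those of L6-HGF. The part of the marker and RNA quality values in the results below was not tested.

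The L6-HGF sheet stood out for these genes. Of 36 members, 23 had their highest value on that array, against 26.9% of all genes, and 16 had their lowest value in the L6-WT monolayer, against 25.2%. The most frequent order, from the L6-WT monolayer through the L6-HGF monolayer and the L6-WT sheet to the L6-HGF sheet, held for 16 members (44.4%) and for 7.93% of all genes. In 23 members both sheets lay above both monolayers, against 30.1% of all genes, although single probe sets of Slc16a1, Pfkfb2 and Pfkfb3 departed from this order. In 6 members, namely Slc2a4, Pfkm, Pfkfb4, Eno3, Ldhb and Pygb, both sheets lay below both monolayers, against 24.3% of all genes, although 1 probe set each of Slc2a4, Pfkm and Pfkfb4 departed from it.

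**Figure D1:**
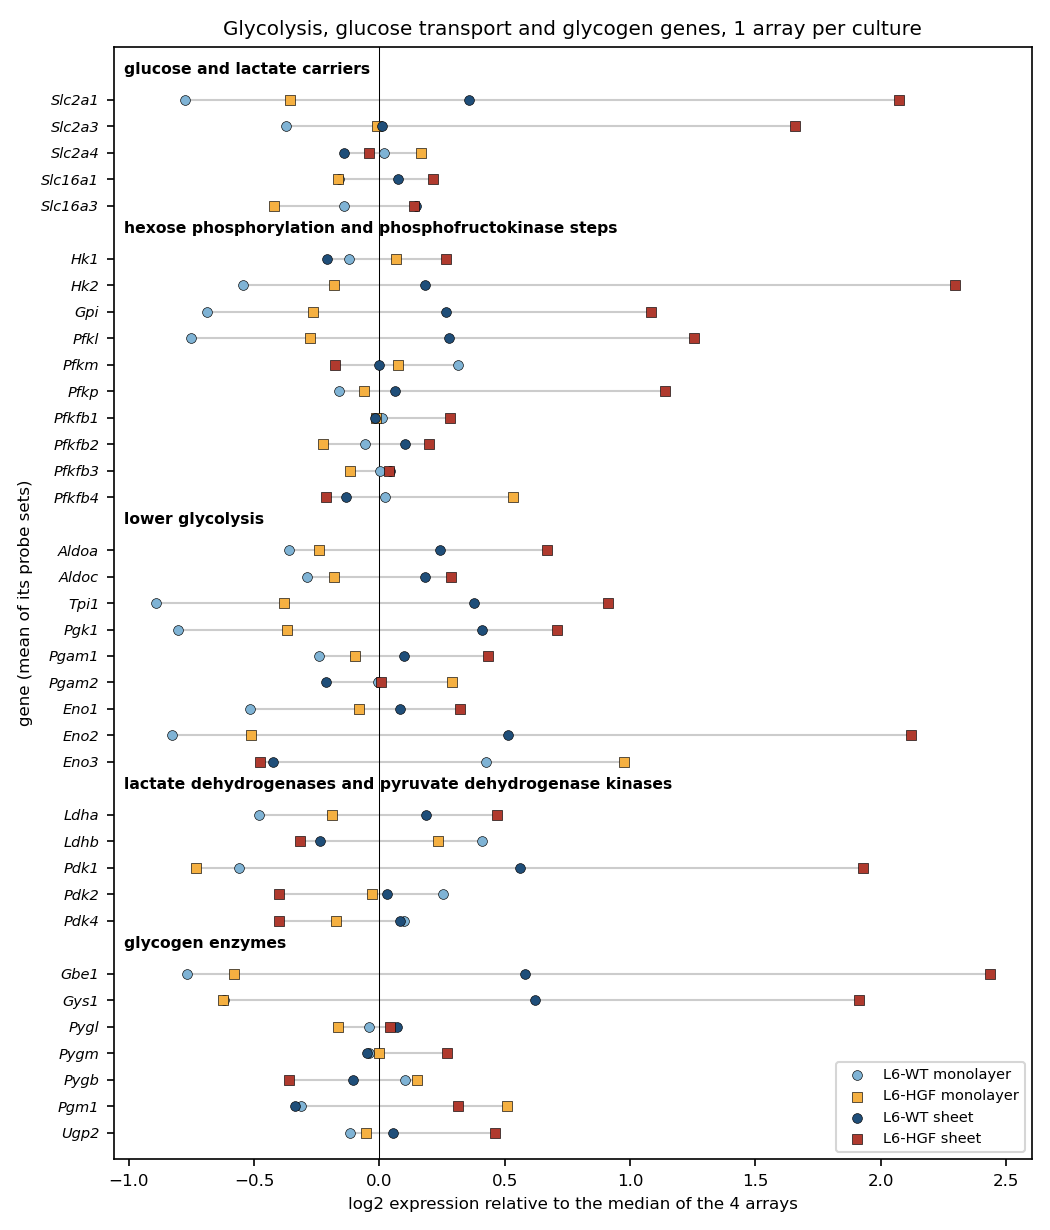
Centred log2 expression (horizontal axis, relative to the median of the 4 arrays) of the 36 members, grouped by role, with 1 symbol per array and a grey line over the range of each gene. The L6-HGF sheet (red square) is the highest of the 4 arrays for 23 members and reaches 2.44 for Gbe1, whereas Eno3 and Ldhb are highest in monolayers.

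Promoter windows are shown for 5 members that the results turn on, 4 with large differences between arrays and Eno3, which ran the other way. They are RefSeq sequences of the build GRCr8, from 250 bases before to 50 bases after the gene start, 5′ to 3′ on the strand of the gene. Capitals mark the letters ACGTG or GCGTG on either strand (read as CACGT or CACGC where they lie on the other strand). These letters are the core motif of the hypoxia-inducible factors. A CACGTG stretch would count on both strands.
Slc2a1, chr5:138002272-138002571, plus strand: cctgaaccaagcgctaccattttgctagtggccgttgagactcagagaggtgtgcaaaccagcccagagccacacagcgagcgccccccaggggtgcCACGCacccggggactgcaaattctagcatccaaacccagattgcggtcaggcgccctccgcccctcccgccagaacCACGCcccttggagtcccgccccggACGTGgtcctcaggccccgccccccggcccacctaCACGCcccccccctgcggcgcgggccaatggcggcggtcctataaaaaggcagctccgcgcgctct
Hk2, chr4:116841226-116841525, minus strand: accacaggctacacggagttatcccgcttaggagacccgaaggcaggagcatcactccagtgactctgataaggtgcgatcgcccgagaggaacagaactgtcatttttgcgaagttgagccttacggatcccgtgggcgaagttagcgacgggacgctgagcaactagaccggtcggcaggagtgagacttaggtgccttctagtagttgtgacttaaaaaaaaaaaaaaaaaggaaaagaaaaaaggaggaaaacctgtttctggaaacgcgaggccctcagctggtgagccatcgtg
Pdk1, chr3:77113264-77113563, plus strand: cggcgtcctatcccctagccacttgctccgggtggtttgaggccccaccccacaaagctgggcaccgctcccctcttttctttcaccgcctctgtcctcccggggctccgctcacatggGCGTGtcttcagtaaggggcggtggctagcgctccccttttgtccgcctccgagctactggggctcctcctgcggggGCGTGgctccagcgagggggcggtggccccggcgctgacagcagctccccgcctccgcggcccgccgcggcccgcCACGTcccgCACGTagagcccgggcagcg
Gbe1, chr11:22181026-22181325, plus strand: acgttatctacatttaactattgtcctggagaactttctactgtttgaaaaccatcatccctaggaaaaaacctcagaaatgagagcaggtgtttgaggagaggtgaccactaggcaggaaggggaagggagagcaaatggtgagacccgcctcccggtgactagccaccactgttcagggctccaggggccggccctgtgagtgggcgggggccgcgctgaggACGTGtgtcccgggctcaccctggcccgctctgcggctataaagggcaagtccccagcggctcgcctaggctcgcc
Eno3, chr10:55868936-55869235, plus strand: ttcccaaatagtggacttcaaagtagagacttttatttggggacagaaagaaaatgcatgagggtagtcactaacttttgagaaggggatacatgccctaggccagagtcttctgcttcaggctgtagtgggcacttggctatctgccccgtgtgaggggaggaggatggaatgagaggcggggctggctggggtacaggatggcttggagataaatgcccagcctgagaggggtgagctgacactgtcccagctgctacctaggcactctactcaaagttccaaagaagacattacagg
The windows of Slc2a1 and Pdk1 held 4 matches each, that of Gbe1 held 1, and those of Hk2 and Eno3 held 0. RefSeq gave 39 windows for 35 of the 38 listed genes, and had none for Slc2a3, Slc2a4 and Pgk1. Of the 39 windows 26 (66.7%) held a match, against 41.6% of all 33469 windows of the same length. Windows of the listed genes were also richer in CG, with a median of 18 CG pairs against 7 over all windows, and the part of base composition in that share was not tested. Of the 8 genes past 2-fold higher in L6-HGF sheets 7 had a window and 6 of these held a match, against 19 of 30 windows (63.3%) of the other measured members, with median CG counts of 23 and 16.5. A match is a run of letters and no evidence of binding.

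In sheets, the L6-HGF value of 8 members exceeded that of L6-WT by more than 2-fold and 0 members were more than 2-fold lower, where 0.492% and 0.95% of all genes were past 2-fold higher and lower. The 8 genes were Hk2, Gbe1, Slc2a1, Slc2a3, Eno2, Pdk1, Gys1 and Pfkp, so that uptake of glucose, its first phosphorylation, the committed step, a late step, the brake on pyruvate oxidation and glycogen synthesis each held at least 1. The median log2 difference over the 36 members was 0.30, against -0.02 over all genes. Of the members 26 were above 0 and 10 below 0, where 46.2% of all genes were above 0. Quantile normalization of the centred values left 4 of the 8 past 2-fold, namely Hk2, Slc2a3, Slc2a1 and Gbe1. Pdk1, Gys1, Pfkp and Eno2 then had log2 differences of 0.80, 0.69, 0.82 and 0.96. The L6-HGF sheet is the array that all sheet values of L6-HGF rest on, and no second array of that culture exists among the 4.

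In monolayers, 0 members were past 2-fold in either direction, where 0.225% of all genes were higher and 0.309% lower. The median log2 difference was 0.13, against 0.0016 over all genes, with 24 members above 0, where 50.4% of all genes were above 0. All 9 genes of lower glycolysis, from aldolase to enolase, lay above 0, between 0.11 for Aldoc and 0.55 for Eno3. The highest value was 0.82 for Pgm1 (1.77-fold) and the lowest -0.29 for Pdk2. Both formats together had 21 members above 0 and 7 below 0, against 27.2% and 30.4% of all genes. No array enters both of these comparisons.

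Between the L6-WT sheet and the L6-WT monolayer, 8 members were more than 2-fold higher and 0 were lower in the sheet, where 0.717% of all genes were higher and 0.492% lower. These were Gbe1, Eno2, Tpi1, Gys1, Pgk1, Slc2a1, Pdk1 and Pfkl. In L6-HGF, 12 members were more than 2-fold higher in the sheet, against 1.17% of all genes, and 1 was lower, against 2.57%. All 8 genes of the L6-WT comparison were among the 12, where 56 of all genes (0.394%) were past 2-fold higher in both lines and 46 (0.324%) in L6-WT alone, and Slc2a3, Hk2, Gpi and Pfkp were the others. The gene that was lower was Eno3. Medians over the members were 0.23 in L6-WT and 0.45 in L6-HGF, each against 0.03 over all genes.

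**Figure D2:**
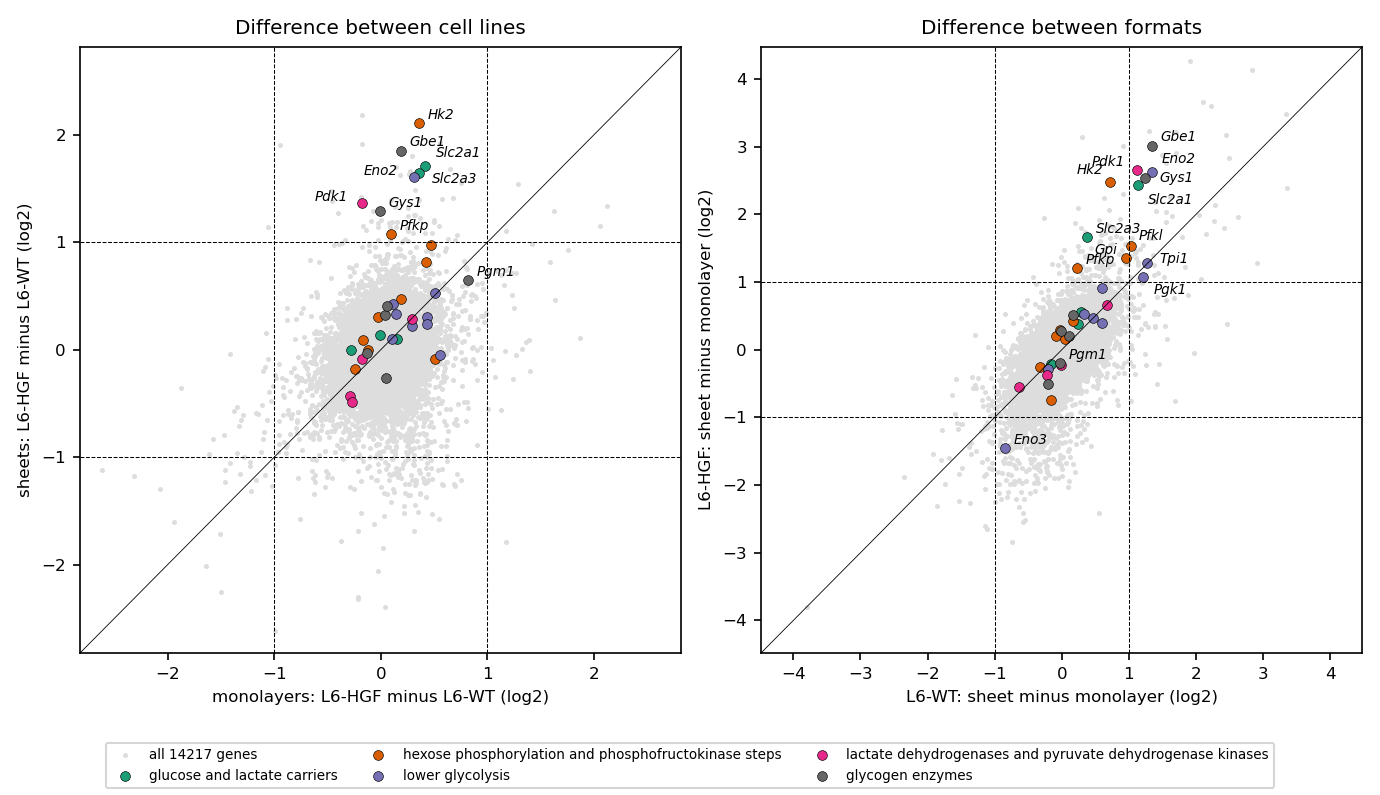
Log2 differences of the 36 members (coloured by role) and of all 14217 genes (grey). Left, L6-HGF minus L6-WT, with monolayers on the horizontal and sheets on the vertical axis. Right, sheet minus monolayer in L6-WT (horizontal axis) and in L6-HGF (vertical axis). Dashed lines are at 2-fold and the solid line marks equal differences. On the left 8 members lie above 2-fold on the sheet axis and 0 on the monolayer axis, and on the right 8 lie above 2-fold on both axes.

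Formats were then set against each other in how far L6-HGF lay from L6-WT, as the sheet difference less the monolayer difference. By arithmetic this equals the sheet minus monolayer difference of L6-HGF less that of L6-WT, and it has no test. Here 7 members were past 2-fold higher, against 0.471% of all genes, and 0 were lower, against 1.43%. They were Hk2 (log2 1.75), Gbe1 (1.67), Pdk1 (1.54), Gys1 (1.30), Slc2a1 (1.30), Eno2 (1.30) and Slc2a3 (1.29). After quantile normalization 1 of them, Hk2 at 1.07, was past 2-fold, and the others lay between 0.59 for Eno2 and 0.94 for Pdk1. The median over the members was 0.17, against -0.01 over all genes.

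A limma model was fitted to all genes and all 4 arrays, with terms for cells and for format and 1 residual degree of freedom. The residual of this model is also the difference of the effect between formats, so genes such as Hk2 have large standard errors in it. For the cells term, 0 members and 0% of all genes had a limma adjusted p under 0.05. At an unadjusted p under 0.05, 11 members were higher in L6-HGF and 2, Pdk2 and Pdk4, were lower, where 4.23% and 4.99% of all genes were higher and lower. For the format term, 0.0141% of all genes passed at a limma adjusted p under 0.05 and 0 members did, with a smallest adjusted p over members of 0.115. The 2 genes that passed were Txnip, an inhibitor of glucose uptake, with a log2 difference of -3.80 between sheet and monolayer, and the matrix gene Dpt, with 3.41. At an unadjusted p under 0.05, 18 members were higher and 5 lower in sheets, against 11.1% and 13.3% of all genes.

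Glucose enters the cell through the facilitative carriers of the Slc2a family. Slc2a1 encodes GLUT1, the widespread basal carrier, and had centred log2 values of -0.78 in the L6-WT monolayer, -0.36 in the L6-HGF monolayer, 0.36 in the L6-WT sheet and 2.07 in the L6-HGF sheet. Its expression was 3.28-fold higher in L6-HGF than L6-WT sheets and 1.34-fold higher in monolayers. It was also 2.19-fold higher in the L6-WT sheet than in the L6-WT monolayer, so both sheets lay above both monolayers. Slc2a3, the high-affinity carrier GLUT3, had -0.37, -0.0096, 0.0096 and 1.66 on the same arrays in the same order. For this gene the L6-WT sheet and the L6-HGF monolayer were close together and the L6-HGF sheet lay apart, with log2 differences between the sheets of 1.45 and 1.85 from its 2 probe sets. Slc2a4, the insulin-responsive carrier GLUT4 of muscle, had 0.02, 0.17, -0.14 and -0.04, and all its differences were within 2-fold.

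Lactate leaves or enters the cell through the Slc16a carriers, which did not follow the glucose carriers past 2-fold. Slc16a1 (MCT1) had centred log2 values of -0.16, -0.17, 0.08 and 0.21 in the L6-WT monolayer, the L6-HGF monolayer, the L6-WT sheet and the L6-HGF sheet. Slc16a3 (MCT4), the exporter of glycolytic cells, had -0.14, -0.42, 0.14 and 0.14. As gene means, both were higher in both sheets than in both monolayers. The 2 probe sets of Slc16a1 disagreed, with -0.23 and 0.22 (log2) for L6-HGF minus L6-WT in monolayers and -0.05 and 0.32 in sheets, and in 1 of them the L6-HGF monolayer (0.10) lay above the L6-WT sheet (-0.10). For Slc16a3 the sheets differed by -0.0049 (log2).

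Hexokinase traps glucose as glucose 6-phosphate. Hk2, the inducible isozyme of muscle, had centred log2 values of -0.54, -0.18, 0.18 and 2.30 in the L6-WT monolayer, the L6-HGF monolayer, the L6-WT sheet and the L6-HGF sheet. It was 4.33-fold higher in L6-HGF than L6-WT sheets, second among all 14217 genes, and 1.65-fold higher in the L6-WT sheet than in the L6-WT monolayer. Hk1, the constitutive isozyme, had -0.12, 0.07, -0.21 and 0.26. Its log2 difference between the sheets was 0.47 and the 3 rat control probe sets annotated to Hk1 gave 0.36, whereas for sheet minus monolayer in L6-HGF the same 2 measures gave 0.20 and -0.06.

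Gpi interconverts glucose and fructose 6-phosphate and had centred log2 values of -0.69, -0.27, 0.27 and 1.09 in that order of the arrays. Its expression was within 2-fold between the sheets, at 0.82 (log2), and past 2-fold between the formats of L6-HGF, at 1.35. Phosphofructokinase carries out the committed step, and its liver subunit Pfkl had -0.75, -0.28, 0.28 and 1.25. The platelet subunit Pfkp had -0.16, -0.06, 0.06 and 1.14, so that for Pfkp the other 3 arrays spanned 0.23 while the L6-HGF sheet lay apart. Pfkl differed by 0.98 (log2) between the sheets, just within 2-fold, and Pfkp by 1.08, just past it.

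The muscle subunit Pfkm did not follow them, with centred log2 values of 0.31, 0.07, -0.0026 and -0.18 in that order. Its 3 probe sets disagreed, from -0.66 to 0.32 (log2) for sheet minus monolayer in L6-WT. The Pfkfb enzymes set the level of fructose 2,6-bisphosphate, the activator of phosphofructokinase, and none of the 4 genes was past 2-fold in any comparison. Pfkfb4 was highest in the L6-HGF monolayer, at 0.53, with 0.02 in the L6-WT monolayer, -0.13 in the L6-WT sheet and -0.21 in the L6-HGF sheet. Pfkfb1, Pfkfb2 and Pfkfb3 had log2 differences between the sheets of 0.30, 0.10 and -0.0016. Probe sets disagreed in sign between the sheets for Pfkfb2 (-0.14 to 0.45), Pfkfb3 (-0.20 to 0.27) and Pfkfb4 (-0.38 to 0.22).

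Lower glycolysis turns fructose bisphosphate into pyruvate, and 7 of its 9 measured genes were higher in sheets in each cell line, against 39.5% of all genes. Tpi1, triose phosphate isomerase, had centred log2 values of -0.89 and -0.38 in the L6-WT and L6-HGF monolayers and 0.38 and 0.91 in the sheets. Its sheet minus monolayer difference was 1.27 (log2) in L6-WT and 1.29 in L6-HGF, and its L6-HGF minus L6-WT difference was 0.51 in monolayers and 0.53 in sheets. The values of Tpi1 on the 4 arrays were thus close to a sum of a cell line and a format difference, with a remainder of 0.02, within the spread of the control probe sets. Pgk1, phosphoglycerate kinase, had -0.81, -0.37, 0.41 and 0.71 as the mean of 3 probe sets, which gave 0.44, 1.35 and 1.85 for sheet minus monolayer in L6-WT. Without the probe set whose name ends in _s_at, that difference was 0.90 in L6-WT and 0.66 in L6-HGF, within 2-fold.

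Aldoa, the aldolase of muscle, had log2 differences of 0.60 and 0.91 between the formats of L6-WT and L6-HGF, and Aldoc had 0.47 and 0.47. Pgam1, phosphoglycerate mutase, had 0.34 and 0.53, whereas the muscle form Pgam2 had -0.21 and -0.28. Gapdh, read from its control probe sets, had centred log2 values of -0.40, -0.07, 0.07 and 0.49 in the L6-WT monolayer, the L6-HGF monolayer, the L6-WT sheet and the L6-HGF sheet. It ran in the same order as Tpi1, and all its differences were within 2-fold.

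The 3 enolases, which make phosphoenolpyruvate, ran in different directions. Eno2, the neuronal isozyme, had centred log2 values of -0.83, -0.51, 0.51 and 2.12 in that order of the arrays. It was 2.53-fold higher in the sheet than in the monolayer of L6-WT and 6.21-fold higher in L6-HGF. Eno1, the isozyme found in most tissues, had -0.52, -0.08, 0.08 and 0.32, within 2-fold throughout. Eno3, the isozyme of adult muscle, had 0.42, 0.98, -0.42 and -0.48. For Eno3 both sheets lay below both monolayers, by 1.80-fold in L6-WT and 2.74-fold in L6-HGF, and the L6-HGF monolayer was the highest array. The limma format term gave Eno3 a log2 difference of -1.15 ± 0.18 (SE) with an adjusted p of 0.117. Each of the 3 genes rests on 1 probe set.

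**Figure D3:**
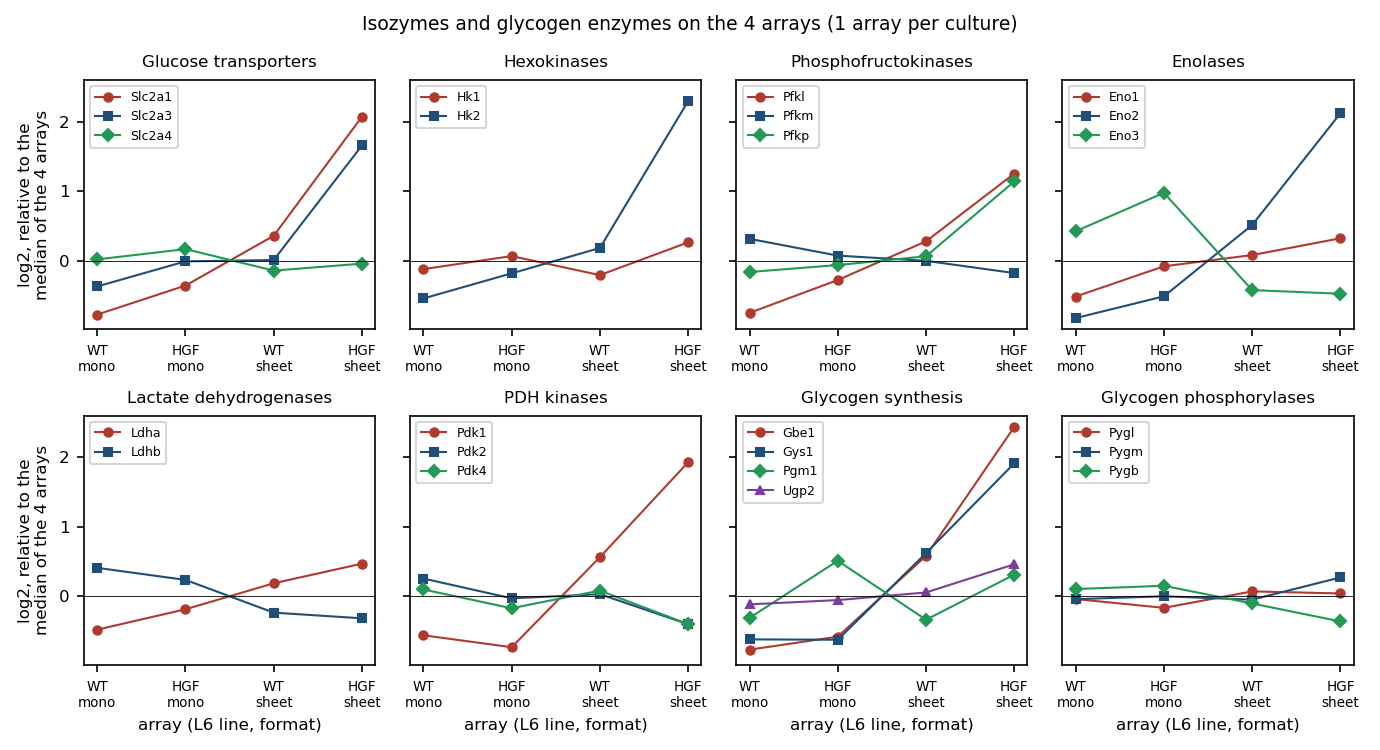
Centred log2 expression (vertical axis) of isozymes and glycogen enzymes on the 4 arrays (horizontal axis), with lines that join the arrays for legibility and 1 array per point. Slc2a1, Hk2, Eno2, Pdk1, Gbe1 and Gys1 peak in the L6-HGF sheet at values between 1.91 and 2.44, whereas Slc2a4, Hk1, Pfkm and the glycogen phosphorylases stay between -0.36 and 0.31.

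At the end of the pathway the lactate dehydrogenase genes were opposed. Ldha, whose subunit favours lactate formation, had centred log2 values of -0.48, -0.19, 0.19 and 0.47 in the L6-WT monolayer, the L6-HGF monolayer, the L6-WT sheet and the L6-HGF sheet. Ldhb, the subunit of oxidative tissue, had 0.41, 0.24, -0.24 and -0.32. The sheet minus monolayer difference of Ldha was 0.67 (log2) in L6-WT and 0.66 in L6-HGF, and that of Ldhb was -0.64 and -0.55. Neither gene was past 2-fold, and all 4 differences were larger than the SD of the control probe sets.

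Of the pyruvate dehydrogenase kinases among the members, Pdk1 was past 2-fold. It had centred log2 values of -0.56, -0.73, 0.56 and 1.93 in that order of the arrays, and was 2.18-fold higher in the sheet than in the monolayer of L6-WT and 6.33-fold in L6-HGF. Between L6-HGF and L6-WT the log2 difference was 1.37 in sheets and -0.17 in monolayers. The 2 probe sets of Pdk1 agreed in sign and differed in size between the sheets, with 0.79 and 1.95. Pdk2 and Pdk4 were lower in L6-HGF in both formats, as Pdk1 was in monolayers alone, with log2 differences between L6-HGF and L6-WT of -0.29 and -0.27 in monolayers and -0.43 and -0.48 in sheets. The 2 probe sets of Pdk4 gave -0.92 and -0.05 between the sheets.

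Among the genes that build glycogen, Gbe1 and Gys1 were past 2-fold between formats in both cell lines. Gbe1, the branching enzyme, had the largest format difference of the 36 members in each line, with centred log2 values of -0.77 and -0.58 in the L6-WT and L6-HGF monolayers, 0.58 in the L6-WT sheet and 2.44 in the L6-HGF sheet. It was 2.55-fold higher in the sheet than in the monolayer of L6-WT and 8.10-fold higher in L6-HGF. Gys1, the glycogen synthase of muscle, had -0.62, -0.63, 0.62 and 1.91. Its monolayers differed by -0.0049 (log2) and its sheets by 1.29, and it was 2.36-fold and 5.81-fold higher in sheets of L6-WT and L6-HGF. Both genes rest on 1 probe set.

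Pgm1, which turns glucose 6-phosphate towards glycogen, ran in the same order of the arrays as Pgam2, with larger differences between cell lines. For Pgam2 the log2 differences between L6-HGF and L6-WT were 0.30 in monolayers and 0.22 in sheets. Pgm1 had centred log2 values of -0.31 and 0.51 in the L6-WT and L6-HGF monolayers. In the L6-WT and L6-HGF sheets it had -0.34 and 0.31. It was 1.77-fold higher in L6-HGF in monolayers and 1.57-fold in sheets, and its sheet minus monolayer differences were -0.03 and -0.20 (log2). Its 2 probe sets gave 0.82 and 0.83 in monolayers and 0.63 and 0.67 in sheets. The limma cells term gave 0.74 ± 0.11 (SE), with an adjusted p of 0.526. Ugp2, which makes UDP-glucose for glycogen synthesis, had log2 differences between L6-HGF and L6-WT of 0.06 in monolayers and 0.41 in sheets.

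The glycogen phosphorylases, which release glucose units from glycogen, were within 2-fold in all comparisons. Between the sheets the liver form Pygl had a log2 difference of -0.03, the muscle form Pygm 0.32 and the brain form Pygb -0.26. The 3 probe sets of Pygm lay between 0.08 and 0.54.

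Other genes of the same metabolism were read from lists that hold no member. Over all genes, 0.492% were past 2-fold higher and 0.95% lower between the sheets, with a median of -0.02. Of 18 measured genes of glycolysis and sugar metabolism, 0 were past 2-fold between the sheets and the median log2 difference was 0.09. Of 17 glycogen genes 1 was past 2-fold between the sheets, Stbd1, a glycogen-binding protein, which was 2.62-fold higher in L6-HGF sheets and 1.38-fold lower in L6-HGF monolayers. Of 7 genes of the pentose phosphate pathway 1 was past 2-fold, the transketolase Tkt, at 2.34-fold, and the median was -0.0015. Of 10 genes of pyruvate entry into mitochondria 0 were past 2-fold, and the median was 0.09. The highest of them was the kinase Pdk3, with log2 differences of 0.68 between the sheets and 0.96 between the formats of L6-HGF. The lowest between the sheets were Pc at -0.59 and Pdp1 at -0.58. Between the formats of L6-HGF 3 of the 10 were above 0, where 53.9% of all genes were, and 7 were below 0. The lowest there was Pc at -0.78. Bsg, the chaperone of the lactate carriers, was 2.97-fold higher in the sheet than in the monolayer of L6-HGF and 1.93-fold in L6-WT. It was the 1 gene of the 18 past 2-fold between the formats of L6-HGF, against 1.17% of all genes. Of the 18, 10 were above 0 there and 8 below 0. The lowest was Slc16a7, of the lactate carrier family, with -0.59 (log2) in L6-HGF and -0.76 in L6-WT.

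Genes of the low-oxygen response outside glycolysis had medians above 0, as the members did, between the sheets and between formats, but not between the monolayers. Of 19 measured, 8 were more than 2-fold higher and 0 were lower in L6-HGF than L6-WT sheets, against 0.492% and 0.95% of all genes. The median log2 difference was 0.81, against -0.02 over all genes. Between sheet and monolayer 5 were past 2-fold higher in L6-WT and 15 in L6-HGF, against 0.717% and 1.17% of all genes. The medians were 0.58 and 1.61, each against 0.03 over all genes. In monolayers the median between L6-HGF and L6-WT was -0.11, against 0.13 for the members and 0.0016 over all genes. Of the 19 genes 13 were below 0, where 7019 of all 14217 genes were. The gene Plod2 was past 2-fold lower, against 0.309% of all genes. The factor subunits themselves, which are on the list, were within 2-fold between the sheets, with 0.31 for Hif1a, 0.08 for Arnt and -0.16 for Epas1. Whether oxygen differed between the cultures was not measured in these files.

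**Figure D4:**
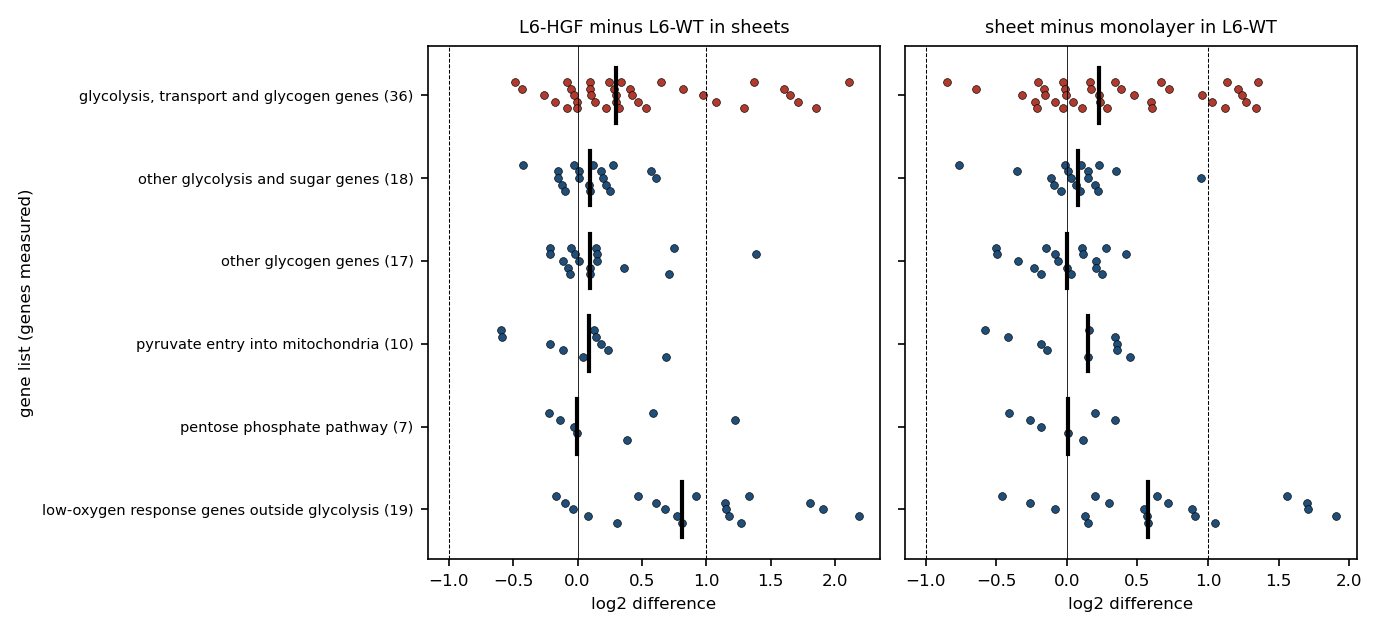
Log2 differences (horizontal axis) of L6-HGF minus L6-WT in sheets (left) and of sheet minus monolayer in L6-WT (right), where points are genes, bars are medians, and dashed lines mark 2-fold (points are offset vertically for legibility). The 36 members have medians of 0.30 and 0.23, the 19 low-oxygen response genes 0.81 and 0.58, and the other lists lie between -0.0015 and 0.15.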

How the data were processed

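RNA of 4 L6 cultures was hybridized to Affymetrix rat genome arrays, 1 array per culture. The authors normalized the arrays with RMA, to median, and deposited log2 values centred on each probe set's median. Which RMA version they ran is not given in the sources used here. Since signal levels are not kept, no filter on dim probe sets was possible. From the 31099 probe sets, 57 control probe sets were left out. The annotation pairs 20826 of the other 31042 with a single gene symbol and 436 with more than 1, and does not list 9780. A gene is the mean of its probe sets, and the 36 members had 56, with 1 probe set for 22 of them. Match to the current gene table changed 0 member symbols.

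The members and lists were chosen with earlier results of these data known. All members are reported, and the other lists are given by their counts, with medians and named genes for some comparisons. Differences between single cultures had no test. The limma p-values rest on 1 residual degree of freedom, which is also the difference of the effect between formats. They measure no spread between replicate cultures. The limma model (version 3.58.1, R 4.3.3) was fitted to all genes with Benjamini-Hochberg adjustment and tested on simulated data. Alternatives were quantile normalization, the median of probe sets, leaving out _x_at and _s_at probe sets, centring on all genes, a 1.5-fold threshold, other limma terms and single probe sets. Keeping the control probe sets was added after seeing the data. Promoter windows were read from RefSeq. Python 3.11.15 with pandas 2.3.3, numpy 2.4.6 and matplotlib 3.10.9 was used.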

Additional observations from a re-analysis of the deposited data

How the results depend on the processing

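Members more than 2-fold higher between the sheets numbered 4 rather than 8 with quantile normalization, and those past 2-fold higher in the difference between formats 1 rather than 7. By construction this setting gives the centred values of the 4 arrays 1 distribution. It also took Pfkp (0.92) and Pgk1 (0.98) below 2-fold between the formats of L6-HGF. At a 1.5-fold threshold, 1 member was higher in L6-HGF monolayers, 13 were higher and 2 lower in the L6-WT sheet than in its monolayer, 2 were lower in the L6-HGF sheet than in its monolayer, and 2 were lower in the difference between formats. The share of all genes past 1.5-fold was not computed, so the counts at this threshold cannot be set against a background. The other counts and medians over members stayed within 1.5 times or within the SD of the control probe sets under these settings, and under the median of probe sets, without _x_at and _s_at probe sets, with centring on all genes, and with the control probe sets kept (37 members). The limma counts of 0 members were 0 with 1 term and on single probe sets. No difference changed sign among members past 2-fold. No paired analysis was possible because each culture has 1 array and the labels give no replicate numbers. No replicate could be left out. Precision is limited by having 4 arrays, and signal over background is not known.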

Other observations

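Genes often taken as references in expression assays differed between formats on these arrays. The 3 control probe sets of beta-actin had log2 differences of -0.36, -0.54 and -0.50 for sheet minus monolayer in L6-WT and of -0.35, -0.55 and -0.52 in L6-HGF. Those of GAPDH had 0.44, 0.43 and 0.55 in L6-WT and 0.58, 0.47 and 0.64 in L6-HGF (each in the order 3′, 5′ and middle probe set). Between L6-HGF and L6-WT, beta-actin lay between -0.05 and 0.01 in both formats, and GAPDH between 0.28 and 0.46. The SDs of the bacterial control probe sets were 0.18 and 0.16 between formats. A sheet minus monolayer difference taken relative to GAPDH would therefore be lower than the same difference taken relative to beta-actin.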
